A study of Mus musculus with 6 samples.

Results

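Actins form the filaments that give a cell its shape and its tension, and serum response factor (SRF) is a transcription factor that drives many of the genes around them. The genes described here are 10 such genes, chosen by symbol from the 48587 genes of the deposited count table. They are the actins Actb, Actg1 and Acta2, the actin-binding proteins Tagln, Tagln2 and Cnn2, the tropomyosins Tpm1 and Tpm4, the myosin light chain Myl9, and Srf itself. Of the 10 genes, 7 reached an abundance of 1 cpm (counts scaled to a common library total) in at least 3 libraries and were tested, as were 13166 genes in all, and Acta2, Tagln and Myl9 did not reach it.

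The genes were measured in total RNA of 4T1 cells, an established mouse mammary carcinoma line, in 3 METTL7A1 and 3 mock libraries. METTL7A1 cells stably carried a FLAG-tagged full-length cDNA of Mettl7a1, which encodes a putative methyltransferase, expressed from a cytomegalovirus promoter under G418 selection, and mock cells stably carried the vector without it. The methods of the study call the libraries biological triplicates without naming separate cultures, so the p values cover the spread between these libraries. Whether the transfected cells were 1 clone or a pool is not given in the sources used here. The study stained filamentous actin in both kinds of cells. It used Actb, along with Mmp14, as a negative control mRNA for translation, and normalized levels in gradient fractions to the total level of each mRNA. The question here was whether the transcripts of actin and its partners differed between METTL7A1 and mock cells.

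Libraries held between 18386780 and 28459338 counts. The transfected gene followed the labels, with 29 to 30 counts of Mettl7a1 in the mock libraries and 6355 to 11358 in the METTL7A1 libraries. AY036118, a gene of the ribosomal repeat, took 13.1%, 5.02% and 0.966% of the counts of mock replicates 1 to 3 and 0.502%, 2.57% and 4.53% of METTL7A1 replicates 1 to 3. Of all 13166 tested genes, 42.1% differed between the groups at an adjusted p below 0.05 (edgeR quasi-likelihood test, Benjamini-Hochberg), 21.1% higher and 21.0% lower in METTL7A1 cells, and 2.48% lay past the thresholds of the study (adjusted p below 0.01 and a log2 fold change over 1.5 in either direction). Luminal epithelial markers were all expressed, with Cdh1 at 624 and 615 cpm and Krt8 at 405 and 406 cpm in mock and METTL7A1 cells.

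In most cells actin exists as free subunits and as filaments, and the balance is set by proteins that cap, cut, bundle or build filaments. Cofactors of the myocardin-related family bind free actin subunits, and once those subunits are taken up into filaments the cofactors enter the nucleus, bind SRF and switch on genes of the cytoskeleton, Srf and actin genes among them. SRF also works with ternary complex factors of the Ets family at immediate early genes. The motif SRF binds, the CArG box, is a pair of C, a run of A or T and a pair of G, and it reads alike on both strands.

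To show which of the genes hold that motif close to their start, RefSeq promoters (GRCm38.p6, 250 bases before to 50 after the transcript start) were searched for it. A promoter was at hand for 8 of the 10 genes, and 4 of these 8 held a CArG box, namely Actg1, Cnn2, Myl9 and Srf. The promoters of Acta2, Tagln2, Tpm1 and Tpm4 did not hold these letters in this window. Of all 32851 promoters of that length, 535 (1.63%) held at least 1 box. The boxes are printed in capitals with 20 bases on either side, 5′ to 3′ along the gene.
Actg1 (chr11:120348556-120348605, minus strand): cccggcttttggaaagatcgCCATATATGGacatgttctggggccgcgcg
Cnn2 (chr10:79988524-79988573, plus strand): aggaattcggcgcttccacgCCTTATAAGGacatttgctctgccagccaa
Myl9 (chr2:156775283-156775332, plus strand): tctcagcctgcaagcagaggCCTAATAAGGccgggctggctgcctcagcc
Srf (chr17:46556195-46556264, minus strand): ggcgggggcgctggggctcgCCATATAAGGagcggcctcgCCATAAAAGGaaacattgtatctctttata
Relative to the first base of the transcript, the box of Actg1 lay at -90 to -81, that of Cnn2 at -56 to -47 and that of Myl9 at -161 to -152. Srf, alone among the 8, held 2 boxes, at -82 to -73 and at -62 to -53. A match is a stretch of letters, not a measured binding site.

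The genes differed widely in level. Compared per kilobase of exon (cpm per kb), the order in mock cells was Actb at 1752, Actg1 at 309, Tpm4 at 182, Tagln2 at 118, Tpm1 at 77.5, Cnn2 at 57.7, Srf at 12.4, Tagln at 0.301, Acta2 at 0.101 and Myl9 at 0.0244. Neighbours in this order did not overlap between libraries down to Tagln, while Tagln with Acta2 and Acta2 with Myl9 did. In METTL7A1 cells the order of the means was the same, from 1316 cpm per kb for Actb to 0.0440 for Myl9, but Tagln2 (95.3) and Tpm1 (92.4) overlapped, as did Acta2 and Myl9. The counted level of Actb was thus 5.67 times that of Actg1 in mock and 6.35 times in METTL7A1 cells. Reads of Actg1 that also fit pseudogenes may be missing from its level, as their treatment is not given.

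**Figure D1:**
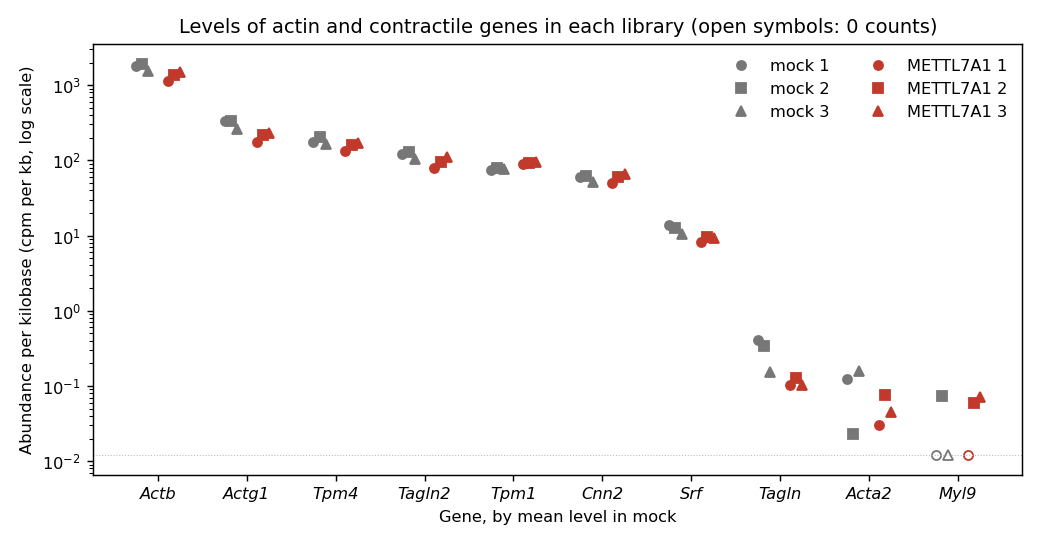
Abundance of the 10 genes in each of the 6 libraries, in cpm per kilobase of exon on a log axis, with genes ordered by their mean in mock cells. Grey symbols are mock and red symbols METTL7A1 libraries, circles, squares and triangles are replicates 1, 2 and 3, and open symbols on the dotted line stand for 0 counts. The 7 tested genes lie at 8.29 cpm per kb or higher, and Tagln, Acta2 and Myl9 at 0.414 or lower.

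The cytoplasmic actins were lower in METTL7A1 cells, and the smooth muscle actin Acta2 was near 0 in both groups. Actb, the beta-actin gene (chromosome 5, 142903115 to 142906754, mm10), measured 3422, 3717 and 2951 cpm in mock replicates 1 to 3 and 2149, 2602 and 2828 cpm in METTL7A1 replicates 1 to 3. All METTL7A1 libraries lay below all mock libraries, and in bulk RNA fewer cells expressing a gene and less RNA of it per cell cannot be told apart. Its mean fell by 24.9%, at 3363 ± 386 cpm in mock and 2526 ± 346 cpm in METTL7A1 cells (SD, n = 3 each). On the log2 scale the change was -0.41 with a standard error (SE) of 0.14 and a 95% interval from -0.71 to -0.11 (edgeR quasi-likelihood test, adjusted p = 0.0305). The call for this control mRNA was lost without mock replicate 1 (-0.38, adjusted p = 0.0934), mock replicate 2 (-0.34, 0.112), METTL7A1 replicate 1 (-0.30, 0.0574) or METTL7A1 replicate 2 (-0.43, 0.0744).

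Actg1, the gamma-actin gene (chromosome 11, 120345690 to 120348542), was lower as well. It measured 643, 655 and 511 cpm in the mock libraries and 343, 425 and 445 cpm in the METTL7A1 libraries, without overlap. The log2 fold change was -0.58 (SE 0.12, 95% interval -0.84 to -0.31, adjusted p = 0.00286), and the mean fell by 32.9%, from 603 ± 80.0 to 404 ± 53.9 cpm (SD, n = 3 each). The call held in all 16 alternative analyses, with log2 fold changes from -0.67 to -0.38. Pseudogenes of Actg1 are many, and 54.5% of the stretches of 75 bases of its longest transcript also occur in transcripts of other genes, against 2.6% for Actb. The genes sharing stretches with Actg1, outside the 10 genes, together held at most 118 counts in any library against 6369 or more for Actg1. How reads mapping to several places were treated is not given, so these counts cannot show whether Actg1 was counted too low.

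Acta2, the smooth muscle alpha-actin gene (chromosome 19, 34241090 to 34255336), stood at 4, 1 and 7 counts in mock and 1, 4 and 2 counts in METTL7A1 replicates 1 to 3. The groups overlap at this depth, where 3 counts equal 0.102 to 0.164 cpm depending on the library, and no difference was detectable. With no filter on abundance its log2 fold change was -0.83 (edgeR adjusted p = 0.571 over 28601 genes).

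Within the actin family the make-up of each library can be read without any scaling between libraries. Per kilobase, Actb supplied 84.4%, 85.2% and 85.4% of counted actin in mock and 86.4%, 86.2% and 86.6% in METTL7A1 replicates 1 to 3, and Actg1 supplied nearly all of the rest. These shares have the same limit from reads that Actg1 shares with pseudogenes. The 4 muscle actins together gave between 0.00856% and 0.0197%. The log2 ratio of Actb to Actg1 was 2.43, 2.53 and 2.55 in mock and 2.67, 2.64 and 2.69 in METTL7A1 libraries, so every METTL7A1 library had relatively more Actb. The difference of 0.16 between the means (2.51 ± 0.06 and 2.67 ± 0.03, SD, n = 3 each) had an exact two-sided permutation p of 0.1, which is the smallest that 3 against 3 libraries can give, and 0.133 after adjustment over the 4 ratios compared.

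The 4 tested actin-binding and tropomyosin genes had log2 fold changes from -0.30 to 0.25. Tagln2 (chromosome 1, 172500047 to 172507380), a relative of transgelin that binds actin filaments, measured 197, 213 and 172 cpm in mock and 129, 159 and 185 cpm in METTL7A1 libraries. The highest METTL7A1 library lay within the mock range. The log2 fold change was -0.30 (SE 0.12, 95% interval -0.57 to -0.03), with an unadjusted p of 0.0317 and an adjusted p of 0.0696 in the edgeR test. It passed the test without mock replicate 3 (adjusted p = 0.0270) or METTL7A1 replicate 3 (0.0149).

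Cnn2 (chromosome 10, 79988584 to 79996062), the non-muscle calponin that binds filaments and myosin, measured 146, 154 and 126 cpm in mock and 124, 147 and 160 cpm in METTL7A1 libraries. The groups covered the same range. Its log2 fold change was 0.02 with a 95% interval from -0.21 to 0.25 (edgeR adjusted p = 0.897), and its promoter holds a CArG box as that of Actg1 does.

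Tropomyosins lie along actin filaments and set which other proteins can reach them. Tpm1 (chromosome 9, 67022590 to 67049406) was the only one of the 7 tested genes to rise, from 361, 382 and 369 cpm in mock to 425, 440 and 460 cpm in METTL7A1 libraries. The groups did not overlap, and the SD within groups was small, at 370 ± 10.6 and 442 ± 17.3 cpm (n = 3 each). Its log2 fold change was 0.25 (SE 0.07, 95% interval 0.09 to 0.42, edgeR adjusted p = 0.0171), a gain of 19.3%. This call was lost without mock replicate 1 (adjusted p = 0.0514), METTL7A1 replicate 2 (0.0709) or METTL7A1 replicate 3 (0.0615).

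Tpm4 (chromosome 8, 72135259 to 72153142) had 377, 436 and 351 cpm in mock and 287, 345 and 363 cpm in METTL7A1 libraries, with 1 METTL7A1 library inside the mock range. Its log2 fold change was -0.22 (SE 0.11, 95% interval -0.46 to 0.01, edgeR adjusted p = 0.115). The proportion of the tropomyosins was also compared within libraries. The log2 ratio of Tpm1 to Tpm4 per kilobase was -1.23, -1.36 and -1.10 in mock and -0.60, -0.82 and -0.83 in METTL7A1 replicates 1 to 3, without overlap. On the linear scale the level of Tpm1 was 0.390 to 0.467 of that of Tpm4 in mock libraries and 0.563 to 0.659 of it in METTL7A1 libraries. The means differed by 0.48 (exact two-sided permutation p = 0.1, the smallest possible, and 0.133 adjusted over 4 ratios), and leaving out any 1 library kept the difference between 0.41 and 0.55.

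Tagln and Myl9 are contractile genes that smooth muscle expresses strongly, and both stood close to the floor in 4T1 cells. Tagln (chromosome 9, 45929628 to 45936058), transgelin, had 12, 13 and 6 counts in mock and 3, 6 and 4 counts in METTL7A1 libraries. On the cpm scale the groups did not overlap, at 0.478 ± 0.213 and 0.176 ± 0.0238 cpm (SD, n = 3 each), but the gene was below the filter, and with no filter its log2 fold change of -1.32 had an adjusted p of 0.0662 (edgeR, 28601 genes). Its log2 ratio to Tagln2 per kilobase was lower in every METTL7A1 library, at -9.74 ± 0.31 against -8.72 ± 0.63 (SD, n = 3 each, exact two-sided permutation p = 0.1 and 0.133 adjusted). Myl9 (chromosome 2, 156775420 to 156781658), a regulatory light chain of myosin, had 0, 2 and 0 counts in mock and 0, 2 and 2 in METTL7A1 libraries, so no fold is given. The log2 ratio of Acta2 to the cytoplasmic actins, -14.7 ± 1.65 in mock and -15.0 ± 0.56 in METTL7A1 libraries (SD, n = 3 each), overlapped (exact permutation p = 0.9), and its difference of -0.26 turned positive without mock replicate 1 (0.06) or mock replicate 3 (0.36).

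**Figure D2:**
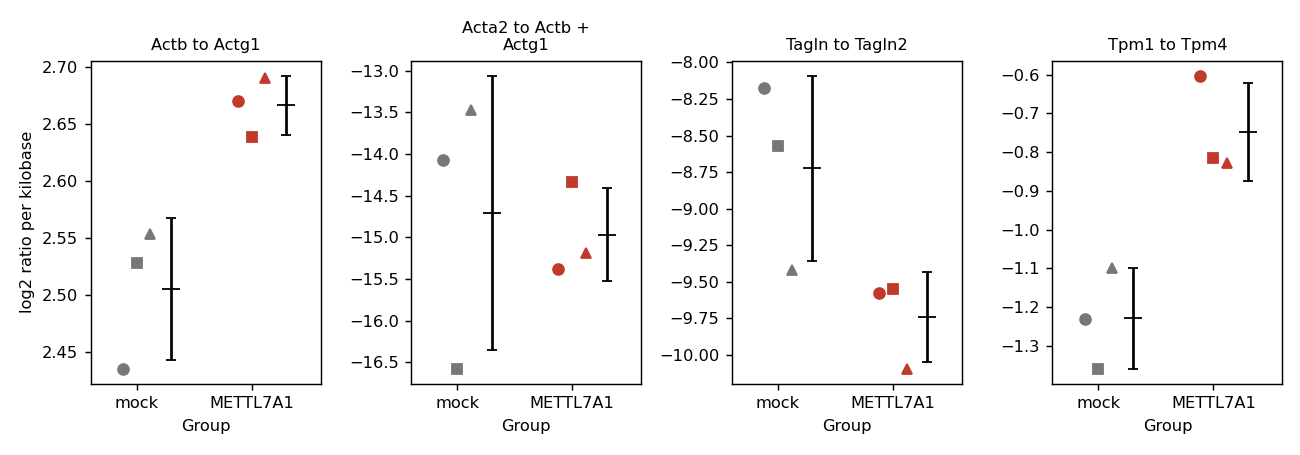
Log2 ratios of related genes per kilobase of exon within each library, for Actb to Actg1, Acta2 to the sum of Actb and Actg1, Tagln to Tagln2 and Tpm1 to Tpm4. Symbols are libraries (circles, squares and triangles for replicates 1, 2 and 3), bars are mean and SD of 3 libraries, and each panel has its own axis that does not start at 0. Groups are apart for every ratio except that of Acta2.

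Srf (chromosome 17, 46546839 to 46556162), the transcription factor, was itself lower in METTL7A1 cells. It measured 56.6, 52.0 and 43.1 cpm in mock and 33.9, 38.7 and 38.5 cpm in METTL7A1 libraries, without overlap. The log2 fold change was -0.44 (SE 0.10, 95% interval -0.67 to -0.22, edgeR adjusted p = 0.00495) and the mean fell by 26.5%, from 50.6 ± 6.90 to 37.1 ± 2.69 cpm (SD, n = 3 each). The call held when any 1 library was left out.

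Of the 7 tested genes, then, 4 passed the test at an adjusted p below 0.05, Actb, Actg1 and Srf lower and Tpm1 higher, beside 42.1% of all tested genes. The count was 2 without mock replicate 1 (Actg1 and Srf), beside 4251 of 12997 genes called. It was 2 without METTL7A1 replicate 2 (the same genes), beside 3761 of 12927. The groups did not overlap for the same 4, beside 51.6% of all tested genes. The median log2 fold change of the 7 was -0.30, beside -0.03 over all tested genes. At the thresholds of the study 0 of the 7 passed in the edgeR test although 5 had an unadjusted p below 0.05, as did 6597 of all 13166 tested genes. No log2 fold change of the 7 was beyond -0.67 under any alternative, DESeq2 and limma voom included. Of the tested genes with a CArG box, Actg1 and Srf fell and Cnn2 was at 0.02, and of those with a promoter but no box, Tpm1 rose, Tagln2 was at -0.30 and Tpm4 at -0.22, while no promoter was at hand for Actb. Among all genes with a promoter at hand, 74 of 135 tested genes with a box were called (54.8%, 37 higher and 37 lower) and 3972 of 8776 without one (45.3%).

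The change of each gene was also set beside that of its neighbours on the chromosome. Over the 40 nearest abundant neighbours the median change (log2) was -0.26 around Actb, -0.19 around Actg1 and Srf, -0.24 around Tpm4, -0.16 around Tpm1, 0.09 around Tagln2 and 0.32 around Cnn2. Tpm1 thus rose among neighbours that were lower, and Cnn2 stood among neighbours that were higher. Measured against their neighbours, Actg1 (-0.38, edgeR adjusted p = 0.0318) and Tpm1 (0.42, 0.00153) still passed the test, while Actb (-0.16, 0.424) and Srf (-0.26, 0.0764) did not. Tagln2 (-0.39, 0.0322) and Cnn2 (-0.30, 0.0462) passed it as lower. In that fit 4146 of all 13166 tested genes were called. The median of the neighbours entered the fit as a fixed value. The p values against neighbours, here and below, thus leave out the error of that median. What part the chromosome region has in these changes was not tested.

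**Figure D3:**
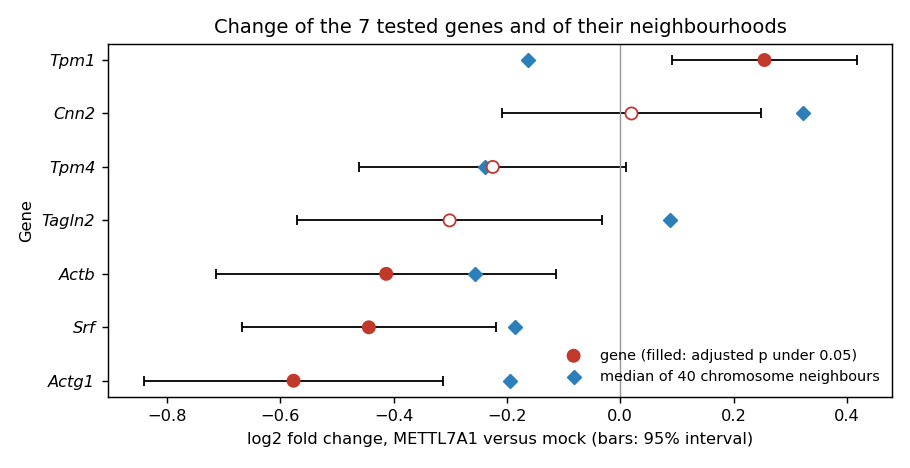
Log2 fold change (METTL7A1 versus mock) of the 7 tested genes with 95% intervals (circles, filled where the adjusted p is below 0.05) and, as blue diamonds, the median over the 40 nearest abundant genes on the same chromosome. Actg1, Srf and Actb lie to the left of 0 and Tpm1 to the right. The diamonds of Actg1, Srf, Tpm1, Tagln2 and Cnn2 (at 0.32) lie outside the interval of the gene, and those of Actb and Tpm4 lie inside it.

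Within groups, 6 of the 7 tested genes shared their lowest libraries. Mock replicate 3 was the lowest mock library and METTL7A1 replicate 1 the lowest METTL7A1 library for Actb, Actg1, Tagln2, Cnn2, Tpm4 and Srf, and these were also the libraries of their groups with the smallest share of AY036118 (0.966% and 0.502%). For Actb these libraries lay 0.18 and 0.22 below their group means on the log2 scale. The highest libraries did not all follow that share. Mock replicate 1 had the largest share in mock (13.1%), but Actb, Actg1, Tagln2, Cnn2 and Tpm4 were highest in mock replicate 2 (5.02%). Srf was highest in mock replicate 1 and METTL7A1 replicate 2. Tpm1 moved least, between 0.05 below and 0.06 above its group mean. Mock replicate 3 was its middle mock library, and METTL7A1 replicate 1 was its lowest METTL7A1 library. How many of all tested genes had these lowest libraries was not counted. With the level of AY036118 within groups as a covariate, 6 of the 7 genes were called, Tagln2 (-0.31, edgeR adjusted p = 0.00392) and Tpm4 (-0.23, 0.0269) in addition. Over all 13166 tested genes that covariate gave 6785 calls, against 5537 without it. Without mock replicate 3 the count of the 7 was 5, beside 5753 of 12930 genes. Without METTL7A1 replicate 1 it was 3, beside 5373 of 12898. The part of ribosomal RNA in the spread was not tested otherwise.

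**Figure D4:**
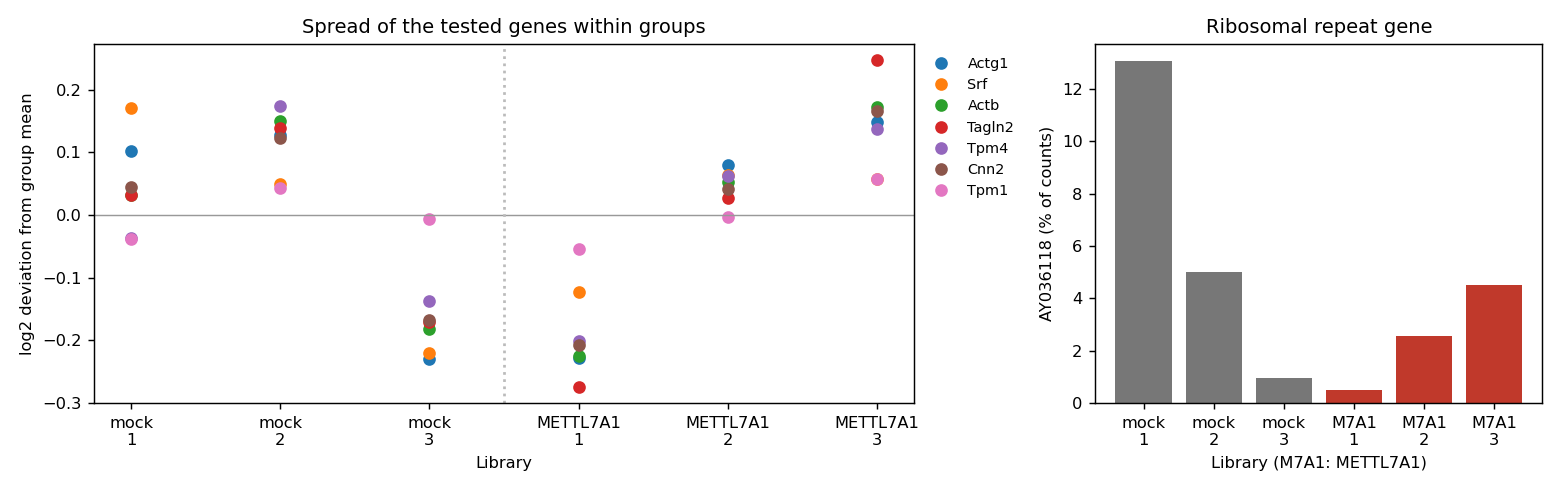
Left, deviation of each of the 7 tested genes from the mean of its group in log2 cpm, for each library. Right, share of counts taken by AY036118 in the same libraries (grey mock, red METTL7A1, written M7A1). Mock replicate 3 and METTL7A1 replicate 1 have the lowest AY036118 shares, and they hold the lowest value of their group for 6 of the 7 genes, while Tpm1 stays within 0.06 of its mean in every library (its symbol covers that of Tpm4 in mock replicate 1).

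The other genes of the pathway were examined in 4 lists with 56 genes, of which 52 were tested and 25 called, 8 higher and 17 lower in METTL7A1 cells, with 0 past the thresholds of the study. Of the 52, 0 passed those thresholds with DESeq2 or limma voom either. In the edgeR test 31 of the 52 had an unadjusted p below 0.05, as did 6597 of all 13166 tested genes. The median log2 fold change of the 52 was -0.11. Over all tested genes 21.1% were called higher and 21.0% lower. Of the 22 tested filament assembly genes 9 were called lower and 2 higher, and of the 19 tested contractile and crosslinking genes 7 and 2. These were also the 2 longest lists. The cofactors of SRF and the immediate early genes had median log2 fold changes above 0.

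Of 6 SRF cofactors, 5 were tested and 2 rose, with a median log2 fold change of 0.11. Mkl2, which encodes a myocardin-related factor that carries the actin signal to SRF, had 37.0 ± 2.51 cpm in mock and 48.9 ± 3.03 cpm in METTL7A1 cells (SD, n = 3 each) and rose by 0.40 on the log2 scale (edgeR adjusted p = 0.0022). Elk3, a ternary complex factor, rose by 0.31 on the log2 scale (adjusted p = 0.00559). The other tested cofactors, named here after their values were seen, were Mkl1 at -0.17 (0.104), Elk4 at 0.11 (0.207) and Elk1 at 0.01 (0.953). Myocd, the cofactor of smooth and cardiac muscle, had 0 counts in all 6 libraries. Of the 5, 0 were called lower by edgeR, DESeq2 or limma voom, and the 2 with an unadjusted p below 0.05 in the edgeR test were Mkl2 and Elk3. Measured against their neighbours, Mkl2 (0.15, adjusted p = 0.184) and Elk3 (-0.16, 0.121) did not pass the test.

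The other contractile and crosslinking genes held 19 tested genes of 20, of which 7 fell and 2 rose (median -0.09). The 5 with the smallest p were all lower, while Myh9, a non-muscle myosin heavy chain (0.26, edgeR adjusted p = 0.0259), and Myl6, a myosin light chain (0.26, 0.0142), both named after their values were seen, were the 2 that rose. Actn1, the alpha-actinin that crosslinks filaments, was at 490 ± 22.7 cpm in mock and 309 ± 15.0 cpm in METTL7A1 cells (SD, n = 3 each), lower by a log2 difference of -0.67 (SE 0.08, edgeR adjusted p = 6.38e-05). Zyx, encoding zyxin, fell by 0.64 (adjusted p = 2.91e-05), Pdlim7 by 0.66 (6.09e-05), Vcl, encoding vinculin, by 0.54 (0.000537) and Fhl2 by 0.33 (0.00393) on the log2 scale. Each of these 5 genes was lower in every METTL7A1 library than in every mock library. They were picked by smallest p, and the groups did not overlap for 51.6% of all tested genes. Measured against their neighbours, Pdlim7 (-0.17) and Vcl (-0.15) did not pass the test, Actn1 passed it at a smaller -0.24 (adjusted p = 0.0365), and 4 genes of the list passed in all.

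The actin monomer binding and filament assembly genes held 22 tested genes, of which 9 fell and 2 rose (median -0.19). The 5 with the smallest p were all lower. The 2 that rose, named after their values were seen, were Tmsb10 (0.47, edgeR adjusted p = 0.0101) and Gsn (0.39, 0.0142). Cfl1, named in the same way, was at -0.04 (0.777) and not called. Tmsb4x, encoding thymosin beta 4, which holds actin subunits in reserve, had 68.6 ± 6.02 cpm in mock and 35.7 ± 4.84 cpm in METTL7A1 cells (SD, n = 3 each) and fell by 0.94 on the log2 scale (SE 0.10, edgeR adjusted p = 4.03e-05). Pfn1, the profilin that feeds subunits to growing filaments, fell by 0.65 (adjusted p = 0.000651). The Arp2/3 subunit genes Arpc1b and Arpc1a, whose complex starts branched filaments, fell by 0.70 (0.000255) and 0.57 (0.000653), and Cfl2, a cofilin that severs filaments, by 0.47 (0.000517). Measured against their neighbours, Arpc1a (-0.21) and Cfl2 (0.02) did not pass the test, and Arpc1b passed it at a smaller -0.34 (adjusted p = 0.0235).

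The immediate early genes held 6 tested genes of 8, of which 2 rose and 1 fell (median 0.32). Egr1, a zinc finger factor that serum induces within minutes, was at 4.35 ± 0.128 cpm in mock and 8.69 ± 0.467 cpm in METTL7A1 cells (SD, n = 3 each). It rose by 1.00 on the log2 scale (SE 0.13, edgeR adjusted p = 0.000124) and was called in all 16 alternatives. Nr4a1, a nuclear receptor, rose by 0.43 (adjusted p = 0.0321), and Junb, an AP-1 subunit, fell by 0.35 (0.0293). The call of Nr4a1 was lost against its neighbours and without any 1 library other than mock replicate 1 (adjusted p from 0.0548 to 0.0877). That of Junb was lost against its neighbours and without mock replicate 1, mock replicate 2 or METTL7A1 replicate 1 (0.0649 to 0.146), so that the list held 1 call without mock replicate 2 or METTL7A1 replicate 1.

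**Figure D5:**
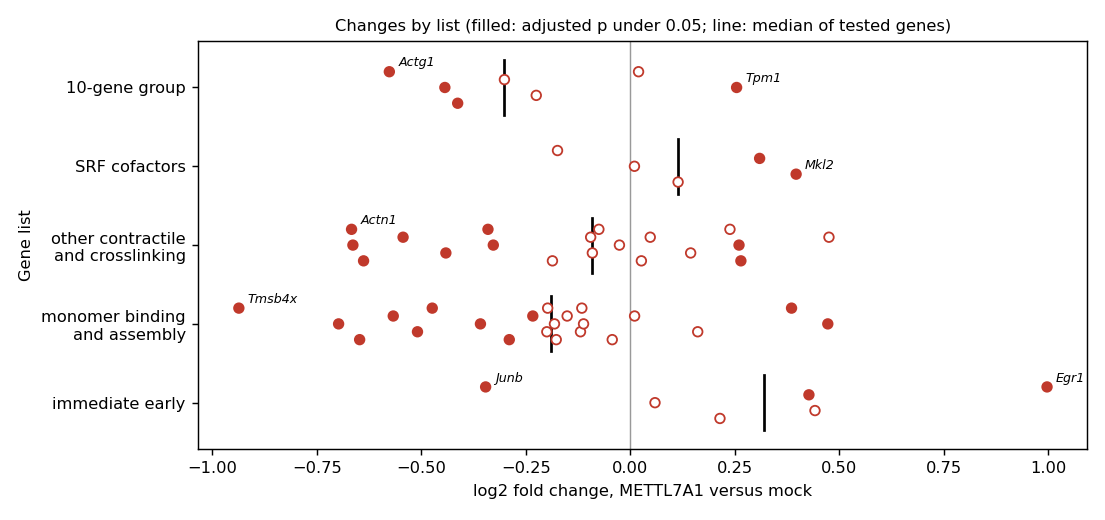
Log2 fold change (METTL7A1 versus mock) of the 7 tested genes of the group and of the 52 tested genes of the 4 pathway lists. Each circle is a gene, filled where its adjusted p is below 0.05, spread vertically for legibility, and the black lines are list medians. The medians lie between -0.30 for the group and 0.32 for the immediate early genes, and Tmsb4x at -0.94 and Egr1 at 1.00 lie at the ends.

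Markers of smooth muscle, myoepithelial cells and fibroblasts, which can express Acta2, Tagln and Myl9, were examined too. Of 8 smooth muscle markers only Smtn was tested, and the other 7 held at most 22 counts in any library, with Actg2 at 0. Smtn, encoding smoothelin, fell by 0.51 on the log2 scale, at 210 ± 8.95 and 147 ± 7.80 cpm (SD, n = 3 each, edgeR adjusted p = 0.000232), and the summed list lay at 203 to 221 cpm in mock and 140 to 155 cpm in METTL7A1 libraries. Basal and myoepithelial markers (1 of 5 tested) summed to 37.8 to 39.6 and 9.54 to 11.0 cpm, nearly all of it Krt14 (log2 fold change -1.94, adjusted p = 7.54e-08), while Krt5 was at 0. Fibroblast markers (1 of 8 tested) summed to 17.5 to 19.8 and 24.0 to 26.8 cpm, nearly all of it Pdgfra, with Lum at 0 and Col1a1 at most 22 counts. Striated muscle markers (2 of 8 tested) summed to 79.8 to 81.1 and 115 to 127 cpm, nearly all of it Tnnt2 with Ttn next, and Actn2 was at 0. Blood and endothelial markers (1 of 4 tested) summed to 5.36 to 6.92 and 12.3 to 14.9 cpm, mostly Cd68, with Ptprc, Pecam1 and Cdh5 at no more than 16 counts. Luminal markers, 6 of 6 tested and 1 called (Krt7, 0.50), summed to 1757 to 2136 and 1936 to 2290 cpm. Their part in the levels of the 10 genes was not tested.

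The genes whose levels ran most like those of Actb over the 6 libraries were Ets1, Uqcrfs1, Lap3, Endog and Rpl7a (Pearson r of log2 cpm from 0.997 to 0.999). For Srf they were Psmb10, Cep170b, Lmna, Ddx54 and Fbxw8 (r from 0.996 to 0.999). These values describe 6 points that share 2 groups and the scaling of each library. None of the 10 genes was among them, and Acta2 was not compared because it was below the filter.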

How the data were processed

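Total RNA of 4T1 cells was depleted of ribosomal RNA, made into stranded libraries and sequenced (3 METTL7A1 and 3 mock libraries, grouped by the sample titles). Per the methods and the processing notes of the submitters, reads were trimmed, aligned to mm10 (GRCm38) with STAR 2.5.3a and assigned to Ensembl genes with featureCounts, and the authors deposited raw counts per gene, not normalized. How strand and reads mapping to several places were treated is not given in the sources used here. Tagln overlaps Pcsk7 and Tpm4 overlaps Gm26586 on the opposite strand (at most 741 and 42 counts), and 9.44% of the stretches of 75 bases of Tpm4 are shared with Gm7809 (at most 163 counts). The table also gives summed exon length per gene, used for levels per kilobase.

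The counts were fitted with edgeR 4.0.16 in R 4.3.3 (TMM factors, glmQLFit and glmQLFTest, no covariate) on all 13166 genes with at least 1 cpm in at least 3 libraries, the filter of the study, and p values were adjusted over these genes (Benjamini-Hochberg). Each adjusted p comes from this test unless another is named. The SE is the size of the log2 fold change over the square root of F. Ratios within libraries were compared by exact permutation. Depth limits precision for genes near 3 counts, the floor used, and this covers counting error only. The test was also run on simulated data, with the counts of each gene drawn independently. That run had no spread shared between the genes of a library, so it does not cover such spread in these libraries.

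The 10 genes, the pathway and marker lists and the tests were chosen with earlier results of these data known. The text names all 10 genes, at most 5 called genes per pathway list by smallest p and, for Actb and Srf, the 5 genes most alike over libraries. Lists of SRF cofactors, contractile, filament assembly and immediate early genes and 6 lists of cell markers were used. Alternatives were RLE and upper quartile scaling, library sizes without the 20 most abundant genes, no abundance filter, at least 10 counts in every library, DESeq2 1.42.0, limma 3.58.1 voom, a replicate block, an offset for the median change of the 40 nearest neighbours with log2 cpm over 2, a covariate for AY036118, and each library left out. No protein sequences were used, and 1 further pathway list is not reported here.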

Additional observations from a re-analysis of the deposited data

How the results depend on the processing

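The call for Actg1 held under all 16 alternatives and that of Srf under all but the neighbour offset. Of the 7 tested genes between 2 and 5 were called when each library was left out (2 without mock replicate 1 or METTL7A1 replicate 2), 2 to 4 as lower and 0 to 1 as higher, the rise of Tpm1 being lost without mock replicate 1, METTL7A1 replicate 2 or METTL7A1 replicate 3. Over all tested genes 3761 to 5753 were called in these fits. With AY036118 as a covariate 5 of the 7 genes were called lower, beside 6785 of all 13166 tested genes called in either direction. Tagln2 was called with no abundance filter, DESeq2, the neighbour offset, the AY036118 covariate and without mock replicate 3 or METTL7A1 replicate 3. With the neighbour offset the pathway lists had 16 called genes, 4 of them higher, beside 4146 of all 13166 tested genes called. Among the genes named under the rule for named genes, the sign turned with it for Cnn2 (-0.30), Cfl2 (0.0185), Elk3 (-0.16) and Tpm4 (0.01), of which only Cnn2 passed the test. Pathway genes called higher numbered 4 to 9 when each library was left out, 4 without METTL7A1 replicate 2 and 5 without METTL7A1 replicate 3. The cause of these differences was not tested.

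Between libraries of the same replicate number, the correlations of deviations from the group means were -0.15, 0.20 and -0.37 for numbers 1, 2 and 3. With 3 libraries per group these values cannot show whether the numbers pair the libraries. With the replicate block 4 of the 7 genes, 24 pathway genes and 4810 of all genes were called, against 5537 without it, and the differences in log2 ratio are the same by construction. All genes called numbered 3761 to 6785 over the alternatives, and the median log2 fold change of all genes lay between -0.03 and 0.01. Depth limits Acta2, Tagln and Myl9, which held at most 13 counts in any library.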
